A study of Mus musculus with 3 samples.

Results

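Chondrocytes that carry RNA of *Efemp1*, *Sfrp5* and *Chil1* form a small fraction of the stromal cells sorted by a *Pdgfra* reporter from growing mouse long bone. They were chosen by counts of unique molecular identifiers (UMIs), tags that let each captured RNA molecule be counted once. Of 11242 cells kept in the *Pdgfra-GFP* library, 361 were members, a share of 3.21% (exact 95% binomial interval 2.89 to 3.55). A member had at least 5 UMIs of *Efemp1*, *Sfrp5* and *Chil1* together, at least 5 UMIs of *Acan*, *Col2a1* and *Comp* together, and under 5 UMIs of *Prg4* and *Cilp*. At most 1 UMI of the endothelial genes *Pecam1* and *Cdh5* and at most 1 of the haematopoietic genes *Laptm5* and *Tyrobp* were allowed.

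The study used droplet-based single cell RNA sequencing to describe stromal cells of the metaphysis, where cartilage is replaced by bone. The *Pdgfra-GFP* library came from femur and tibia of 3-week-old untreated *Pdgfra-H2B-GFP* heterozygous males, a C57BL/6 reporter line in which a nuclear GFP marks cells with *Pdgfra* promoter activity. The metaphysis with its neighbouring epiphysis was dissected, digested with collagenase and sorted for GFP. A pair of libraries (metaphyseal replicates 1 and 2) came from metaphysis of 3-week-old untreated C57BL/6J males, depleted with lineage, CD45 and CD117 beads and not sorted for GFP. How many animals were pooled in a library is not given in the sources used here. With 1 *Pdgfra-GFP* library no replicate spread could be set against a difference between its cells, so none was tested. Intervals cover counting error only.

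Growth plate and articular chondrocytes build a matrix of type II collagen and aggrecan. In the growth plate, resting cells feed columns of dividing cells, which enlarge into hypertrophic cells that switch to type X collagen. PTHrP from resting cells, Indian hedgehog from prehypertrophic cells, and BMP and Wnt signals with their secreted inhibitors set the pace of this sequence. *Sfrp5* encodes a secreted Wnt antagonist of the frizzled-related family, *Efemp1* encodes fibulin-3, an extracellular matrix glycoprotein, and *Chil1* encodes a secreted chitinase-like glycoprotein that chondrocytes are known to release.

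In the GRCm38 build *Efemp1* lies at chr11:28853204-28926743 on the plus strand, *Sfrp5* at chr19:42197971-42202252 on the minus strand and *Chil1* at chr1:134182176-134190181 on the plus strand. All are protein-coding genes, and these are the spans of whole genes, introns included.

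The *Pdgfra-GFP* library held 91747759 UMIs. Of the kept cells 417 reached the limit on the selecting genes. The cartilage limit removed 27 of them, the limit on *Prg4* and *Cilp* another 21, the endothelial limit 0 and the haematopoietic limit 8. Members had 3356648 UMIs in all, with 2431 UMIs in the shallowest cell, a median of 8915 and 23516 in the deepest.

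Members were compared with 1274 kept cells called comparison chondrocytes, which had at least 2 UMIs of *Acan*, at least 3 of *Matn3* and *Col9a1* together and under 5 of the selecting genes. Their median was 8634.5 UMIs, so that depth was similar on both sides. They were mixed: 20.3% carried at least 5 UMIs of the superficial zone genes *Prg4* and *Cilp*, and 6.28% at least 5 UMIs of the hypertrophic collagen gene *Col10a1*. A narrow comparison of 933 cells, chosen after the data were seen, had neither and passed the endothelial and haematopoietic limits. A set of 613 superficial chondrocytes had at least 5 UMIs of *Prg4* and *Cilp*, passed the members' cartilage, endothelial and haematopoietic limits, had under 5 selecting UMIs and had a median of 5767 UMIs.

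Chondrocyte markers outside the rule are given as a description, since cartilage genes chose the members. *Sox9*, the master transcription factor of cartilage, was at 408 UMIs per 1000000 UMIs (CPM) in the summed members and 421 CPM in comparison chondrocytes, and was found in 90.9% and 86.3% of cells (51.0% and 51.2% after each cell was thinned to 2000 UMIs). *Hapln1*, the link protein of aggrecan, was at 1439 and 2164 CPM. In 255 haematopoietic cells of the same library, chosen by at least 5 UMIs of *Laptm5* and *Tyrobp* and under 5 of *Acan*, *Col2a1* and *Comp*, *Sox9* was found in 2.75% of cells and *Hapln1* in 5.88%, at a median depth of 6096 UMIs. Because these cells were chosen for few cartilage UMIs, their low shares cannot check the label of the members. The cartilage limit alone is a weak filter, since 7.06% of 4770 marrow stromal cells, those with at least 20 UMIs of *Cxcl12* and under 2 of *Acan*, *Matn3* and *Col9a1* together, also met it. Of these stromal cells 0.147% reached the limit on the selecting genes. Among the members 337 also met the *Acan*, *Matn3* and *Col9a1* limits of the comparison and 24 did not.

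The reporter that the cells were sorted on was scarce in members. *H2B_GFP* was at 13.1 CPM (9.52 to 17.6) in members, 17.2 CPM in comparison chondrocytes, 42.9 CPM in superficial chondrocytes and 103 CPM over all kept cells that were not members. *Pdgfra* itself was at 7.75, 8.36, 19.4 and 49.4 CPM in the same order. Every set of chondrocytes thus lay below the average of the library for the reporter.

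The selecting genes are given as a description, since they chose the cells. *Sfrp5* was found in 87.5% of members, with a median of 5 and a maximum of 67 UMIs per cell. *Chil1* was found in 68.4%, with a median of 2 and a maximum of 391 UMIs, and this 1 cell held 13.6% of all *Chil1* UMIs of the members. *Efemp1* was found in 50.7%, with a median of 1 and a maximum of 33 UMIs. In the haematopoietic cells *Efemp1* and *Sfrp5* were each found in 0.392% of cells, whereas *Chil1* was found in 27.1%, so a *Chil1* UMI alone does not mark cartilage in this library.

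Members differed in which selecting gene they carried. All 3 genes were detected in 105 members (29.1%), *Sfrp5* with *Chil1* in 101, *Sfrp5* alone in 59, *Efemp1* with *Sfrp5* in 51, *Efemp1* with *Chil1* in 23, *Chil1* alone in 18 and *Efemp1* alone in 4. The gene with most UMIs was *Sfrp5* in 192 cells, *Chil1* in 124 and *Efemp1* in 45, with 18 ties given to the first in the order *Efemp1*, *Sfrp5*, *Chil1*. The summed selecting UMIs had a median of 10 per member and reached 413, and 166 members (46.0%) had only 5 to 9. At the limit itself, 73 chondrocytes with 4 selecting UMIs and 50 with 5 were set side by side: *Apoe* was at 3658 CPM outside and 3483 CPM inside, *Pthlh* at 136 and 154 CPM, *Notum* at 316 and 284 CPM, and *Spon1* at 90.9 and 71.5 CPM. *Cxcl14* was at 540 CPM outside and 343 CPM inside, *Dio2* at 45.4 and 18.9 CPM, *Panx3* at 40.7 and 14.7 CPM and *Bmp3* at 7.83 and 25.2 CPM, so the cells on both sides of the limit were close in some genes and not in others.

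The other markers of these cells were chosen with earlier results of these data known, so their levels too are a description. They were more abundant in the summed members, although *Gdf5* and *Cst6* were found in a minority of cells. *Calml3*, a calmodulin-like protein gene, was at 952 CPM (920 to 986) in members and 366 CPM (354 to 377) in comparison chondrocytes, and was found in 86.7% against 64.8% of cells. *Gdf5*, a joint-forming ligand of the BMP family, was at 109 and 29.6 CPM, and was found in 25.2% against 10.0% of cells. *Cst6*, an inhibitor of cysteine proteases, was at 152 and 43.2 CPM, found in 23.6% against 8.40% of cells. After thinning to 2000 UMIs the shares were 64.3% against 40.2% for *Calml3*, 13.02% against 4.25% for *Gdf5* and 9.14% against 4.25% for *Cst6*. A single comparison cell held 53.8% of the *Cst6* UMIs on its side, and 1 member held 20.6% on the other.

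**Figure D1:**
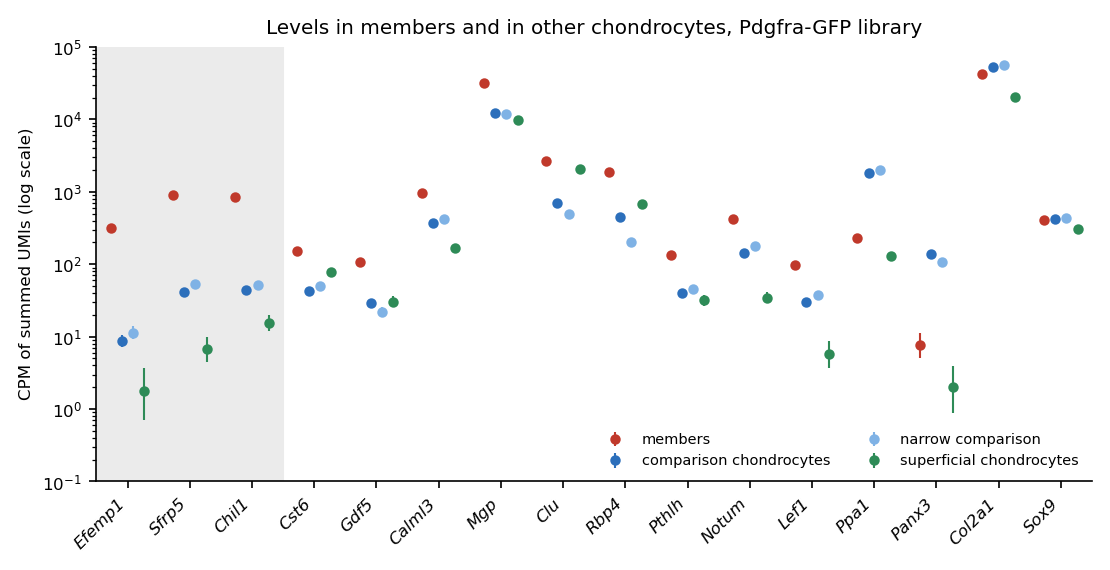
Levels of 16 genes in CPM of summed UMIs on a log scale in the 361 members (red), 1274 comparison chondrocytes (dark blue), 933 cells of the narrow comparison (light blue) and 613 superficial chondrocytes (green) of the Pdgfra-GFP library; bars are exact 95% Poisson intervals. The 3 shaded genes chose the cells; Mgp, Clu, Rbp4, Pthlh, Notum and Lef1 were highest in members, Ppa1 and Panx3 were lower in members than in both comparison sets, and Sox9 was at 408 and 421 CPM in members and comparison chondrocytes.

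Across the transcriptome few genes differed by 2-fold between the members and the comparison chondrocytes. Of 4986 genes with at least 20 CPM in the higher set, the 14 genes of the rule left out, 93 (1.87%) were at least 2-fold higher in members and 89 (1.78%) at least 2-fold lower. The median log2 ratio of all genes tested was -0.05. Against the narrow comparison 110 of 4968 genes (2.21%) were at least 2-fold higher and 87 (1.75%) lower, and 80 of the 93 higher and 53 of the 89 lower genes were shared. These counts come from the cells that the rule chose, so they describe the members and test nothing.

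**Figure D2:**
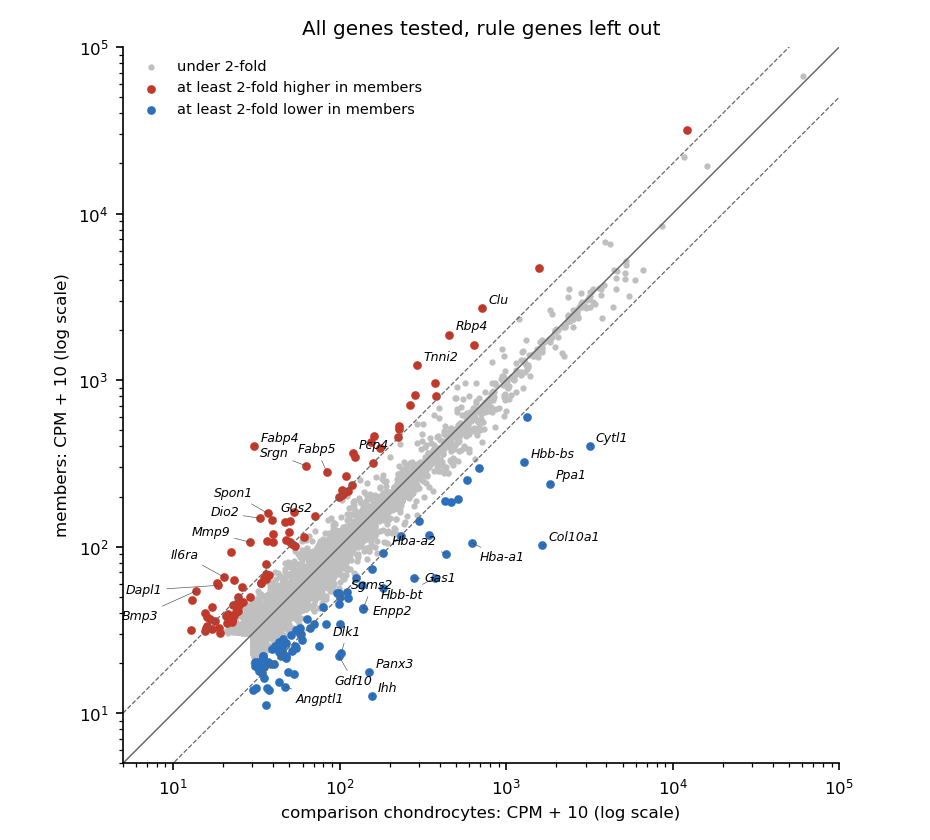
CPM plus 10 of the 4986 genes tested in members (vertical) against comparison chondrocytes (horizontal), both on log scales, with the line of equality and dashed lines at 2-fold. Red points mark the 93 genes at least 2-fold higher and blue points the 89 at least 2-fold lower before 10 CPM was added; the 29 labelled genes are those with the largest ratios that are reported here, and Col10a1, Ihh, Panx3, Ppa1 and Cytl1 lie farthest below the line.

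The named genes of the higher side are given here by what they encode, an order set after the ratios were seen, starting with secreted and matrix proteins. *Clu*, the extracellular chaperone clusterin, was at 2700 CPM in members and 707 CPM in comparison chondrocytes, a ratio of 3.82 (exact 95% interval 3.71 to 3.94). It was at 2078 CPM in superficial chondrocytes, where it is a known marker, so this gene separated the members from the comparison far more than from the superficial zone. *Rbp4*, the carrier of retinol, was at 1868 and 444 CPM (4.21-fold) and in 78.9% against 52.1% of cells. *Spon1*, the matrix protein spondin 1, was at 148 and 27.1 CPM (5.48-fold) and in 56.0% against 15.5% of cells, while it was found in 2.45% of superficial chondrocytes and in 6.27% of haematopoietic cells. *Srgn*, the granule proteoglycan serglycin, was at 297 and 52.5 CPM (5.65-fold), but haematopoietic cells held 1048 CPM of it. After thinning, *Spon1* was found in 28.5% of members, 5.90% of comparison chondrocytes, 1.15% of superficial chondrocytes and 1.98% of haematopoietic cells.

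*Mgp*, the inhibitor of cartilage calcification, was among the most abundant RNAs of the members at 31565 CPM, against 12111 CPM in comparison chondrocytes (2.61-fold, 2.59 to 2.63). A member had a median of 116 *Mgp* UMIs and a comparison cell 51. *Apoe*, which carries lipids, was at 4726 and 1570 CPM (3.01-fold) with medians of 34 and 4 UMIs per cell. *Apoe* was also high in the haematopoietic cells, at 7136 CPM. *Cxcl14*, a secreted chemokine, was at 807 and 273 CPM (2.96-fold).

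Next come single genes of hormone and growth factor signalling. *Dio2*, the deiodinase that activates thyroid hormone, was at 138 and 23.4 CPM (5.89-fold), and at 38.4 CPM in superficial chondrocytes. It was found in 28.8% of members, 10.9% of comparison chondrocytes, 16.8% of superficial chondrocytes and 0.784% of haematopoietic cells. *Pthlh*, which encodes PTHrP, was at 133 and 40.6 CPM (3.27-fold) and in 43.5% against 17.0% of cells. *Bmp3*, a BMP family member that opposes BMP signalling, was at 44.4 and 3.83 CPM (11.6-fold, 8.23 to 16.6), yet only 58 members (16.1%) had a UMI. *Il6ra*, the receptor of interleukin-6, was at 55.4 and 10.4 CPM (5.35-fold). Each of these kept its direction against the narrow comparison, with ratios of 6.83 for *Dio2*, 2.91 for *Pthlh*, 10.1 for *Bmp3* and 4.36 for *Il6ra*.

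Genes better known from other tissues were present as well. *Tnni2*, a troponin of fast muscle, was at 1228 and 283 CPM (4.34-fold) and in 55.1% of members. *Pcp4*, a small regulator of calmodulin, was at 355 and 110 CPM (3.23-fold). *Dapl1* was at 48.6 and 8.53 CPM (5.69-fold), with 28.6% of the comparison cells' *Dapl1* UMIs in 1 cell.

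For 4 of the named genes on the higher side, 1 member held at least 34.0% of the members' UMIs. *Fabp4*, a fatty acid-binding protein of fat cells, had the largest ratio (19.05), but it was found in 9.70% of members and 10.3% of comparison cells, and the 4 members with at least 10 UMIs included 1 with 39.1% of all UMIs. Among the 337 members that met the comparison's cartilage limits its ratio was 1.09. *Fabp5* was 3.66-fold higher, with 49.1% of its UMIs in 1 member and a ratio of 1.56 among the 337. *G0s2*, an inhibitor of triglyceride breakdown, was 4.57-fold higher, with 34.0% in 1 member and a ratio of 2.03 among the 337. It was found in 30.5% of members and 17.0% of comparison cells, and in 12.2% and 5.11% after thinning. *Mmp9*, a gelatinase, was 5.09-fold higher, with 88.3% in 1 member; it was found in 9.97% of members and 11.1% of comparison cells, and with called doublets removed its ratio was 0.63.

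Of 14 genes on the hypertrophic list 4 were at least 2-fold lower in members (*Panx3*, *Ihh*, *Pth1r* and *Col10a1*) and 0 higher, beside 1.78% and 1.87% of all genes tested. Against the narrow comparison 3 of 14 were lower and 1 higher. Against superficial chondrocytes 6 of 12 genes tested were higher in members and 0 lower, beside 5.81% and 9.11% of all genes. Superficial chondrocytes had *Panx3* at 2.02 CPM, *Ihh* at 0.505 CPM and *Col10a1* at 53.8 CPM, below the members. Low levels of these genes were therefore not particular to members. *Panx3*, a channel gene of hypertrophic chondrocytes and osteoblasts, was at 7.75 CPM in members against 140 CPM in comparison chondrocytes (ratio 0.06) and in 3.60% against 24.4% of cells, and it was at 106 CPM in the narrow comparison. *Ihh*, Indian hedgehog, had 9 UMIs in all members and was at 2.68 against 146 CPM, and at 28.2 CPM in the narrow comparison. *Ppa1*, which is on no such list and splits pyrophosphate, was at 229 against 1821 CPM (ratio 0.13), and the narrow comparison held 2013 CPM. Superficial chondrocytes held 131 CPM of it. *Pth1r*, the PTHrP receptor, was at 241 against 573 CPM. *Col10a1* was at 92.1 against 1636 CPM, but 1 member held 65.7% of the members' UMIs, and against the narrow comparison, which was chosen for low *Col10a1*, the order turned to 7.24-fold higher.

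Other lower genes differed in how far their ratio held against the narrow comparison, which leaves out superficial, *Col10a1*-rich, endothelial and haematopoietic cells together. *Cytl1*, a secreted protein of cartilage, was at 394 against 3157 CPM (ratio 0.12), but at 406 CPM in the narrow comparison (0.97) and 9639 CPM in superficial chondrocytes. *Gas1*, a hedgehog co-receptor, was at 54.8 against 269 CPM and turned to 1.75-fold higher than the narrow comparison. *Gdf10*, a BMP family ligand, was at 12.2 against 88.7 CPM and stayed low against the narrow set (0.22). *Dlk1*, *Angptl1*, *Sgms2* and *Enpp2* had ratios of 0.14, 0.12, 0.25 and 0.25, and 0.54, 0.32, 0.39 and 0.51 against the narrow set.

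Haemoglobin RNA was lower in the sum of members for *Hba-a1*, *Hba-a2*, *Hbb-bt* and *Hbb-bs*, with ratios of 0.16, 0.19, 0.15 and 0.24. In the same order the ratios were 0.12, 0.15, 0.12 and 0.19 against the narrow comparison. Against superficial chondrocytes they were 1.07, 1.11, 1.10 and 1.18. One comparison cell held between 22.4% and 28.4% of the UMIs of each of these genes. The shares of cells with a UMI were alike, at 50.4% and 50.6% for *Hba-a1* and 91.7% and 87.0% for *Hbb-bs* in members and comparison cells. *Hbb-bs* was at 2007 CPM over all kept cells that were not members. The part of free erythroid RNA in these values was not tested.

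The lists of genes described next had been put together with earlier results of these data known, and their counts stand beside 1.87% of all genes tested that were higher and 1.78% that were lower. Of the cartilage collagens 0 of 8 tested genes differed by 2-fold in either direction, with a median log2 ratio of -0.54. *Col9a2* was at 2752 against 3158 CPM, *Col9a3* at 4030 against 5186 CPM, and *Col11a1* at 2747 against 4346 CPM. Of 11 genes of the cartilage aggregate and its glycoproteins 2 were lower (*Cytl1* and *Matn1*), and of 10 leucine-rich proteoglycans 1 was higher (*Aspn*, with 68.0% of its UMIs in 1 member and a ratio of 0.74 among the 337). Of 17 chondrocyte transcription factors 0 differed by 2-fold. The fibulins and elastic fibre genes other than *Efemp1* had 0 higher and 1 lower (*Loxl4*) of 11. Of 11 aggregate genes and 10 elastic fibre genes 0 differed by 2-fold from the narrow comparison, *Loxl4* not being tested there, while 1 of 8 collagens was lower and 1 of 16 transcription factors higher.

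Of the resting zone list 3 of 10 tested genes were at least 2-fold higher (*Apoe*, *Spon1* and *Pthlh*) and 2 lower (*Gas1* and *Grem1*). *Ucma*, an abundant matrix protein of the distal resting zone, was at 3375 against 3221 CPM, and the Wnt inhibitor gene *Wif1* at 1280 against 817 CPM (1.57-fold). Against the narrow comparison the count was 3 higher and 0 lower. Of the list of columnar and proliferating cells 0 of 10 were higher and 2 lower (*Matn1* and *Prkg2*). Against the narrow comparison 0 of 10 columnar genes were higher and 3 lower, while *Matn1* turned to 1.71-fold higher, under 2-fold.

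Among Wnt antagonists other than *Sfrp5*, 1 of 6 tested was higher: *Notum*, an enzyme that removes the lipid of Wnt proteins, was at 418 against 144 CPM (2.90-fold) and in 69.0% against 41.8% of cells. Of 7 Wnt ligands, receptors and targets 1 was higher and 1 lower. *Lef1*, a nuclear effector of Wnt signalling, was at 96.5 against 29.7 CPM (3.25-fold), and the ligand *Wnt5b* at 22.6 against 56.0 CPM (ratio 0.40). Both Wnt genes and *Notum* kept their side of 2-fold against the narrow comparison.

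The hedgehog and PTHrP list had 2 of 10 genes higher (*Pthlh* and *Gli2*, a transcription factor of the hedgehog pathway at 29.2 against 11.5 CPM) and 3 lower (*Ihh*, *Pth1r* and *Gas1*). The ligand *Pthlh* and its receptor gene *Pth1r* thus lay on opposite sides. Of this list 3 of 10 genes were higher and 2 lower than in the narrow comparison. In the BMP and GDF list 2 of 18 were higher (*Gdf5* and *Bmp3*) and 3 lower (*Grem1*, a secreted BMP antagonist, *Gdf10* and *Bmp6*), and in the TGF-beta list 0 of 12 were higher and 1 lower (*Inhba*). Against the narrow comparison 2 of 15 BMP and GDF genes were higher and 1 lower, and 0 of 13 TGF-beta genes differed by 2-fold. In the IGF axis 2 of 10 were higher and 0 lower: the proteases *Pappa2* and *Pappa*, which free IGF by cutting its binding proteins, were at 99.5 against 37.5 CPM and at 69.1 against 26.1 CPM. Of the FGF axis 0 of 4 differed.

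Immediate early genes are known to respond to tissue dissociation. Of 16 genes on the dissociation and stress list 7 were at least 2-fold higher and 0 lower, with a median log2 ratio of 0.92 against -0.05 over all genes tested, and the list summed to 9002 CPM in members and 4776 CPM in comparison chondrocytes. *Fos*, its most abundant gene, was at 2312 against 1185 CPM (1.95-fold), *Junb* at 1613 against 634 CPM (2.54-fold), *Ier2* at 793 against 369 CPM and *Egr1* at 517 against 218 CPM. Median mitochondrial shares were 0.918% and 0.880% of UMIs. The part of dissociation in the other differences was not tested.

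Cell cycle RNA was set against each of the other groups of chondrocytes. Of 11 cell cycle genes tested 0 were at least 2-fold higher than in comparison chondrocytes and 2 lower (*Birc5* and *Cenpf*), against the narrow comparison 0 of 14 were higher and 9 lower, beside 2.21% and 1.75% of all genes, and against superficial chondrocytes 3 of 8 were higher and 0 lower, beside 5.81% and 9.11%. *Top2a* was at 27.1 CPM in members, 43.7 CPM in comparison chondrocytes and 58.1 CPM in the narrow comparison. After each cell was thinned to 2000 UMIs, 19 of 361 members (5.26%, 3.20 to 8.10) had a UMI of *Mki67*, *Top2a*, *Cdk1* or *Ube2c*, against 7.70% (6.30 to 9.31) of comparison chondrocytes, 9.98% (8.13 to 12.1) of the narrow comparison and 2.30% (1.26 to 3.83) of superficial chondrocytes. Unthinned, the shares were 12.2%, 13.8%, 16.1% and 5.38%. Thinning left out 0 members, 2 comparison cells, 1 cell of the narrow comparison and 5 superficial cells.

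Markers of other cell types were checked in the same sums. The marrow stromal list summed to 1280 CPM in members and 903 CPM in comparison chondrocytes, with *Cxcl12* its most abundant gene at 414 and 454 CPM. Of its genes 2 of 6 tested were higher, *Hp* and *Lpl*, with ratios of 2.95 and 2.07 that were 1.25 and 1.04 among the 337 members at the cartilage limits. Of 8 osteoblast genes 1 was higher (*Car3*, 1.49 among the 337), and that list, led by *Col1a1*, summed to 10059 and 12049 CPM. Of 3 septoclast genes 2 were higher (*Fabp5* and *Mmp9*, with 49.1% and 88.3% of UMIs in 1 member), and the list summed to 415 and 139 CPM with *Fabp5* at the top. Of 9 genes of fibroblasts and perichondrium 2 were higher (*Ly6a* and *Aspn*) and 2 lower (*Col3a1* and *Postn*), in a list that summed to 4245 and 6624 CPM, led by *Col1a1*, with *Pi16* at 0 in members. Of 10 tendon, ligament and enthesis genes 0 were higher and 3 lower (*Col3a1*, *Tnmd* and *Tnc*), and the list summed to 11413 and 15856 CPM, led by *Col1a2*. The endothelial and mural lists had 1 tested gene each, with no 2-fold difference. They summed to 34.6 against 62.3 CPM, led by *Ramp2*, and to 140 against 215 CPM, led by *Cspg4*, and the endothelial receptors *Kdr* and *Tek* were at 0 in members. Of 4 haematopoietic genes tested 4 were lower (*S100a8*, *S100a9*, *Ngp* and *Camp*), with between 47.5% and 75.6% of the UMIs on the comparison side in 1 cell, and the list summed to 131 against 301 CPM with *S100a8* at the top. The rule limited haematopoietic RNA in members and not in comparison chondrocytes, and against the narrow comparison, which has the same limit, 0 of 2 tested genes differed by 2-fold. Set against the narrow comparison, 1 of 6 marrow stromal genes and 1 of 9 fibroblast genes were higher, and 2 of 9 fibroblast genes and 4 of 10 tendon genes lower. The part of cells and RNA of other types in the differences was not tested.

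The remaining lists held few differences. Of 12 matrix proteases 1 was higher (*Mmp9*), of 12 protease inhibitors 1 (*Cst6*) with 1 lower (*Timp1*, at 175 against 460 CPM), of 10 mineralization regulators 1 (*Mgp*), of 12 genes of the calmodulin family and S100 proteins 1 (*Calml3*), and of 4 innate and acute phase genes 1 (*Cxcl14*). Of 4 joint interzone genes 1 was higher (*Gdf5*), of 6 superficial and articular genes 1 higher (*Clu*) and 1 lower (*Creb5*), of 14 genes of hypoxia and glycolysis 0 higher and 1 lower (*Bnip3*), and of 2 muscle and neural genes 0 differed. The counts higher and lower against the narrow comparison were 2 and 0 of 5 for the superficial and articular genes, 2 and 1 of 11 for the protease inhibitors and 0 and 0 of 14 for hypoxia and glycolysis.

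Several genes moved with the number of selecting UMIs, some of them also below the limit and others only above it. For this description all cells that met the *Acan*, *Matn3* and *Col9a1* limits and the members' limits on *Prg4* and *Cilp*, on endothelial and on haematopoietic genes were put into 6 bins: 515 cells with 0 selecting UMIs, 332 with 1 to 2, 160 with 3 to 4, 156 with 5 to 9, 82 with 10 to 19 and 99 with 20 or more. Median depth lay between 8585 and 9594 UMIs in every bin. *Apoe* was at 882, 2024, 3368, 4327, 4619 and 5347 CPM from the lowest to the highest bin, so most of its difference lay below the limit of the rule. *Rbp4* behaved otherwise, at 267, 276, 266, 433, 1316 and 4318 CPM, with its difference at the top.

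*Clu* was at 339 CPM with 0 selecting UMIs and 4877 CPM with 20 or more, *Mgp* at 10712 and 54868 CPM, *Srgn* at 29.7 and 678 CPM, and *Dio2* at 13.6 and 308 CPM. *Pthlh* was at 15.2, 46.6, 116, 123, 123 and 160 CPM, and *Notum* at 108, 186, 284, 408, 435 and 414 CPM, both nearly level from 5 UMIs on. On the lower side *Ppa1* was at 2750 and 128 CPM and *Panx3* at 247 and 8.35 CPM in the lowest and the highest bin. *Col2a1* was at 53780 CPM in the lowest bin, 58681 CPM with 1 to 2 selecting UMIs and 31988 CPM in the highest. The immediate early gene *Junb* was at 392.5, 763, 1077, 1308, 1706 and 2002 CPM over the same bins, and the part of dissociation in the other values was not tested. Other genes had no single direction. *Cst6* was at 67.6, 22.97, 10.6, 45.7, 182 and 298 CPM, *Gdf5* at 32.3, 26.5, 24.1, 36.9, 149 and 185 CPM, and *Fabp4* at 16.8 and 19.8 CPM in the end bins. *Col10a1* was at 3018, 928, 7.79, 18.4, 34.8 and 253 CPM, and 1 member held most of the last value. The order of the bins rests on the genes that chose the members.

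**Figure D3:**
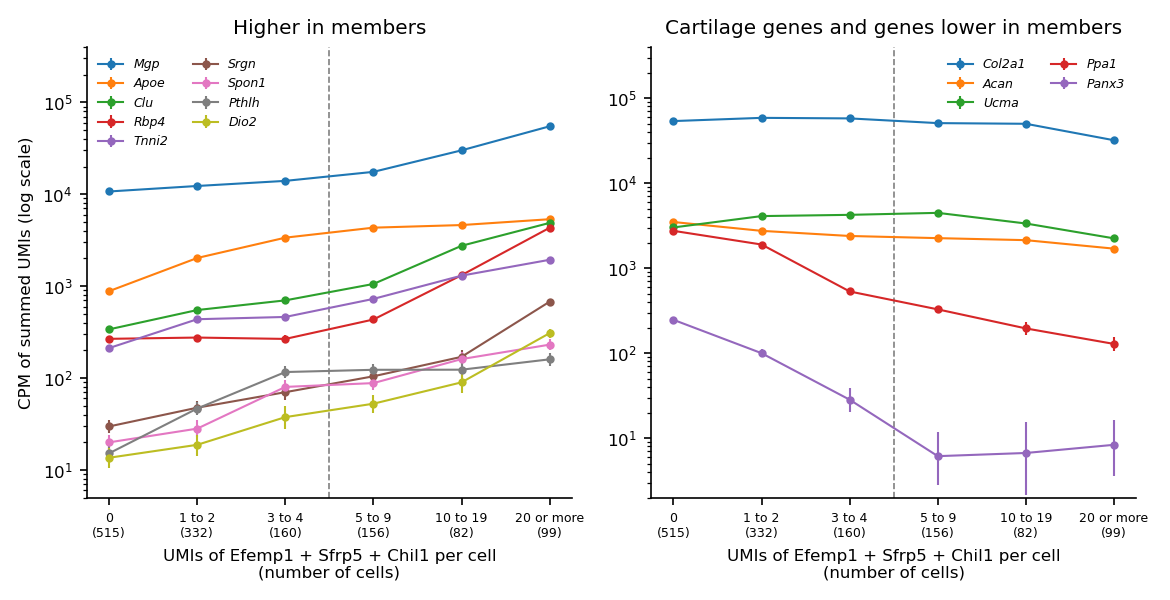
CPM of summed UMIs on a log scale in chondrocytes binned by their UMIs of Efemp1, Sfrp5 and Chil1, with the number of cells of each bin in brackets; bars are exact 95% Poisson intervals and the dashed line is the limit of the rule. Apoe and Pthlh differ mostly to the left of the line, Rbp4, Srgn and Dio2 mostly to its right, and Panx3 goes from 247 to 8.35 CPM.

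Nearest neighbours were found without the selecting genes, although UMIs of the rule genes had chosen the sets that were counted. All members, comparison chondrocytes and superficial chondrocytes (1995 cells) were placed by 20 principal components of 2000 variable genes, from which the rule genes and the other markers were left out, and the 20 nearest cells of each were counted. Of the members' neighbours 52.1% were members, who made up 18.1% of all cells, 44.7% were comparison cells outside the superficial set and 3.20% were superficial cells. Members were most of the neighbours for 162 of 361 members (44.9%), and comparison cells outside the superficial set for 177 (49.0%). Of the neighbours of superficial chondrocytes, 30.7% of all cells, 91.2% were of their own kind, and of those of comparison cells outside the superficial set, 51.2% of all cells, 79.3% were. With the dissociation and stress list also left out, 52.0% of the members' neighbours were members.

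By the gene with most UMIs, the members fell into groups that also differed in other genes. Cells led by *Efemp1* had *Dio2* at 301 CPM (249 to 361), against 122 (107 to 140) and 107 CPM (89.7 to 128) in cells led by *Sfrp5* and *Chil1*, *Gdf5* at 220, 126 and 47.5 CPM, and *Spon1* at 265, 126 and 143 CPM. Cells led by *Sfrp5* had *Tnni2* at 1888 CPM, against 615 and 457 CPM in those led by *Efemp1* and *Chil1*. *Notum* was highest in cells led by *Chil1*, at 544 CPM against 250 and 369 CPM, whereas *Rbp4* was lowest there, at 1000 CPM against 2697 and 2274 CPM. *Cst6* was at 51.0 CPM in cells led by *Efemp1* and at 170 and 157 CPM in the others. Of the neighbours of cells led by *Efemp1* 71.7% were members, against 47.9% for *Sfrp5* and 51.5% for *Chil1*.

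**Figure D4:**
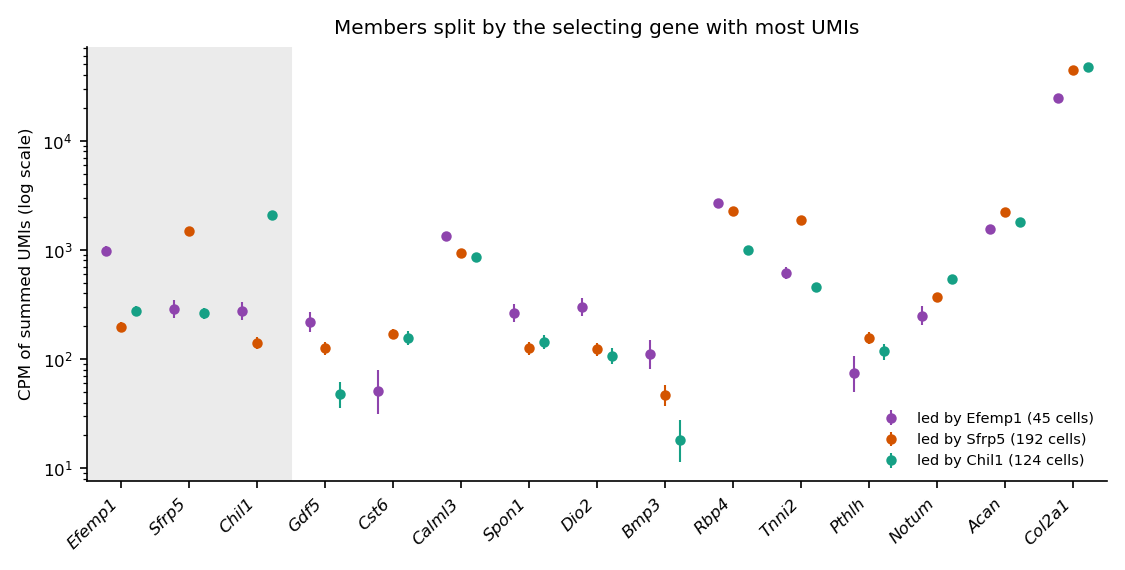
Levels of 15 genes in CPM on a log scale in the 45 members led by Efemp1 (purple), 192 led by Sfrp5 (orange) and 124 led by Chil1 (green); bars are exact 95% Poisson intervals, and the shaded genes made the groups. Dio2, Gdf5 and Bmp3 were highest in cells led by Efemp1, Tnni2 in cells led by Sfrp5 and Notum in cells led by Chil1.

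Among the 337 members at the cartilage limits, each group was also set against the other members over all genes. For the 40 cells led by *Efemp1*, *Bmp3* was at 130 against 25.4 CPM (5.14-fold, 3.44 to 7.60), while *Adipoq*, *Fabp4*, *Cfd* and *Lpl*, genes of fat and marrow stromal cells, had at least 88.9% of their UMIs in 1 cell. *Col1a2*, a chain of type I collagen, was at 721 against 4112 CPM and *Ndufa4l2*, a gene raised by hypoxia, at 78.8 against 590 CPM. *Spon2* had 0 UMIs against 138 in the other members. For the 178 cells led by *Sfrp5*, *Tnni2* was at 1873 against 509 CPM (3.68-fold), and *Ptges3l* at 112 against 26.0 CPM. For the 119 cells led by *Chil1*, *Bpifb1* was at 109 against 10.0 CPM (10.9-fold) and *Bpifb5* had 98 UMIs against 3, and *Il17b*, a cytokine of cartilage, was at 10.2 against 62.6 CPM. For *Mmp9*, *Mmp13* and *Msmp* in these cells 1 cell held 96.6%, 82.1% and 60.3% of UMIs.

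The members differed more from superficial chondrocytes than from the comparison. Of 5269 genes tested 306 (5.81%) were at least 2-fold higher in members and 480 (9.11%) lower. *Tnni2* was 25.9-fold, *Pcp4* 39.1-fold, *Spon1* 39.2-fold and *Notum* 12.1-fold higher in members. *Dlk1*, *Gas1*, *Cytl1* and *Tnmd*, a membrane protein of tendon, each had a ratio of 0.04. Of 13 tendon, ligament and enthesis genes tested 0 were higher and 10 lower, with *Col3a1* at 184 against 2611 CPM. *Cst6* was at 152 against 79.0 CPM and *Clu* at 2700 against 2078 CPM, under 2-fold. Depth differed here, with medians of 8915 and 5767 UMIs. Of 16 dissociation and stress genes 10 were at least 2-fold higher and 0 lower in members. The part of dissociation in these differences was not tested.

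The metaphyseal libraries were not used to choose the members, and few of their cells met the same rule: 4 of 2743 kept cells (0.146%, 0.0397 to 0.373) were members in replicate 1 and 2 of 2313 (0.0865%, 0.0105 to 0.312) in replicate 2. Their values are given with no test, which was not run on 6 cells. Median depth in replicates 1 and 2 was 19042.5 and 15481.5 UMIs in members. It was 10901 and 17344 UMIs in comparison cells, and 5886 and 6012 UMIs over all kept cells. The libraries shared 9, 11 and 2 cell barcodes between *Pdgfra-GFP* and replicate 1, *Pdgfra-GFP* and replicate 2, and the replicates. Comparison cells numbered 42 and 47, and they were rich in hypertrophic cells, with *Col10a1* at 21902 and 19074 CPM against 1636 CPM in the *Pdgfra-GFP* library.

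Members of these libraries carried the selecting genes by definition. *Sfrp5* was at 2566 CPM in the 4 members of replicate 1, 549 CPM in the 2 of replicate 2 and 911 CPM in the *Pdgfra-GFP* members. Of the rest, *Tnni2* was at 2592 and 2067 CPM in members of replicates 1 and 2, against 86.5 and 31.6 CPM in their comparison cells. *Clu* was at 1463 and 5523 CPM against 96.7 and 40.4 CPM, but in replicate 2 it came from 1 cell. *Pcp4* was at 539 and 517 CPM against 45.8 and 37.9 CPM, *Srgn* at 128 and 840 CPM against 23.8 and 63.1 CPM, and *Bmp3* at 436 and 194 CPM against 6.79 and 10.1 CPM.

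Of the 15 genes named for the highest ratios in the *Pdgfra-GFP* library, 11 were higher in members than in comparison cells in both metaphyseal replicates and 1 (*Mmp9*) was lower in both. *Mmp9* had 0 UMIs in members of both, with 17.0 and 18.9 CPM in comparison cells, below what a count of 0 can tell apart. *Dapl1* had 0 UMIs in members and in comparison cells of both replicates. The interval of the ratio lay above 1 for 10 of the 15 in replicate 1 and 8 in replicate 2, and below 1 for *Fabp5* in replicate 1 and *Fabp4* in replicate 2. Over all 4986 genes tested 23.1% were higher in both. Of the 15 named for the lowest ratios 11 were lower in both and 1 (*Gas1*, from 2 and 5 UMIs, with intervals of the ratio of 0.249 to 14.1 in replicate 1 and 10.5 to 672 in replicate 2) was higher in both, against 37.6% of all genes tested that were lower in both. The interval lay below 1 for 11 of these 15 in replicate 1 and 5 in replicate 2, and genes such as *Angptl1* had 0 UMIs in members and 3.39 and 3.79 CPM in comparison cells. *Ppa1* was at 282 and 32.3 CPM in members against 1424 and 2006 CPM. *Panx3* and *Ihh* had 0 UMIs in the members of both replicates, with 86 and 136 *Panx3* UMIs and 86 and 112 *Ihh* UMIs in the comparison cells. A count of 0 allows a level of up to 38.5 CPM in the members of replicate 1 and 96.9 CPM in those of replicate 2, at 3 UMIs per library. The other markers did not all follow. *Gdf5* was lower in both, at 12.8 against 120.5 CPM and 32.3 against 84.6 CPM, from 1 UMI in each replicate. The interval of its ratio was 0.00266 to 0.613 in replicate 1. In replicate 2 it was 0.00953 to 2.20, which includes 1. *Cst6* had 1 and 6 UMIs in members and 0 in comparison cells, and *Calml3* was at 167 against 112 CPM and 64.6 against 87.1 CPM.

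**Figure D5:**
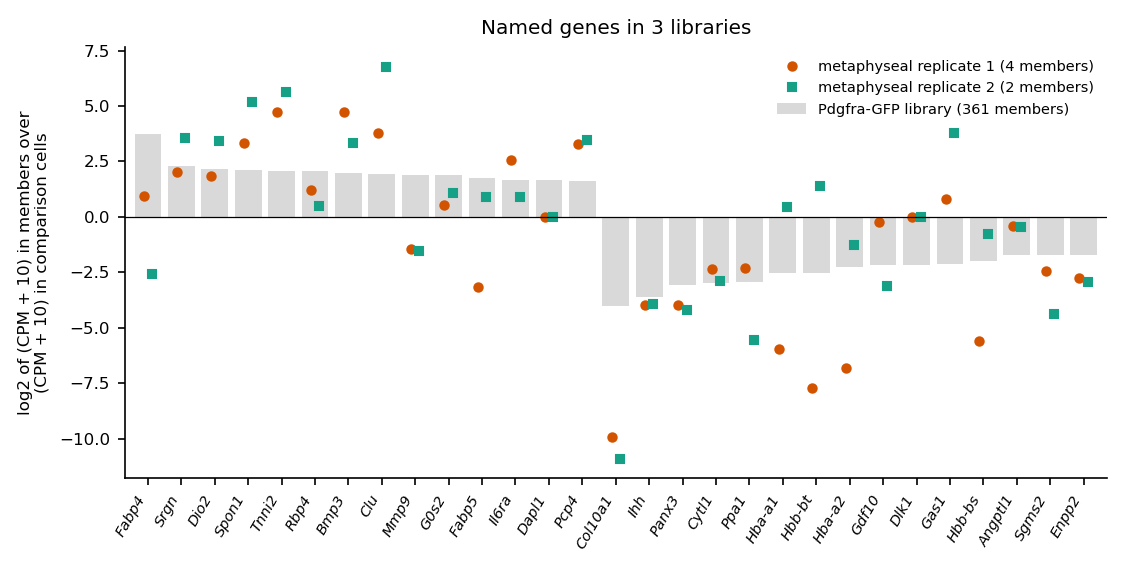
Log2 of CPM plus 10 in members over CPM plus 10 in comparison cells for 29 named genes, as bars for the Pdgfra-GFP library (361 members) and points for metaphyseal replicates 1 (4 members, circles) and 2 (2 members, squares). On the left 10 of 14 genes are above 0 in both replicates, on the right 11 of 15 are below 0 in both, and Gas1 is above 0 in both; points at 0 stand for genes with no UMI on either side.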

How the data were processed

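The authors trimmed reads with fastp 0.20, aligned them by STARsolo (STAR 2.7.3a) to the mm10 build, annotated by Gencode M23 plus *H2B-GFP*, and deposited raw UMI counts for 55422 genes and all barcodes, with no cell filter or normalization. Gene positions came from Gencode M21 of the same build, GRCm38. The libraries held 91747759, 25243314 and 22082735 UMIs (*Pdgfra-GFP*, metaphyseal replicates 1 and 2).

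A kept cell had 1000 genes or more, with no more than 15% of UMIs mitochondrial and 30% from *Rps* or *Rpl* genes, as the study's filter for the *Pdgfra-GFP* library; EmptyDrops was not used here. This left 11242, 2743 and 2313 of 1014956, 428087 and 426579 barcodes with a UMI. Near-empty barcodes with under 100 UMIs held 7.24% of the UMIs of the *Pdgfra-GFP* library. Free RNA was not removed. Scrublet (scanpy 1.11.5) called 155 cells (1.38%) as doublets, 9 members among them, at an expected rate of 8.99%; they were kept.

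UMIs were summed over each set of cells and given as CPM, which is not scaled by gene length. Differences are drawn between sets of cells. Where a gene is called abundant, or the top or lead of a list, this orders genes by UMIs only. Intervals are exact at 95%: Poisson for CPM, Clopper-Pearson for shares, conditional binomial for ratios. A gene was tested at 20 CPM or more in the higher set. The named genes are the 15 highest and 15 lowest by log2 ratio with 10 CPM added, with an interval excluding 1, without rule, mitochondrial, ribosomal and unnamed genes, up to 4 examples a list, and 5 genes a side for splits of the members. Some genes that this rule names are not reported here. The comparison was also run on simulated counts with changed genes, for which no rate is given here. Those counts were Poisson draws, the same model that the intervals assume. They held no single cells rich in a gene, so they could not check the method on genes that rest on few cells. The members, the 37 lists and the rule for names were chosen with earlier results of these data known. Because metaphyseal replicates held 4 and 2 members, no count model was fitted; edgeR 4.0.16 in R 4.3.3 gave only the TMM factors of an alternative. Alternatives changed the cell filters, the limits of the rule, doublets, depth, scaling, the minimum level and the fold.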

Additional observations from a re-analysis of the deposited data

How the results depend on the processing

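No paired analysis was possible because the comparison lies within 1 library and comes from no test. The number of members stayed between 337 and 533 with 500 or 1500 genes per cell, 5% mitochondrial UMIs, 3 selecting UMIs, stricter cartilage limits, no limit on *Prg4* and *Cilp*, doublets removed, or the cartilage limits of the comparison (this setting and the narrow comparison were chosen after seeing the data). It was 195 with at least 10 selecting UMIs and 129 when the rule was applied to cells thinned to 2000 UMIs. The counts of genes higher and lower were 276 and 284 at 5 CPM, 58 and 41 at 50 CPM, 2405 and 4950 with no minimum, 241 and 279 at a fold of 1.5, 36 and 34 at a fold of 3, 57 and 48 with the whole interval beyond 2, 143 and 193 for members with at least 10 selecting UMIs, and 152 and 174 for cells thinned to 2000 UMIs. The other settings gave between 80 and 110 higher and between 83 and 101 lower. The minimum level, the fold and the interval change the number of genes by construction; for the others the cause was not tested.

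For 38 genes in 16 settings, 458 of 608 log2 ratios stayed within the interval of counting error, 142 moved beyond it and 8 changed sign. The settings of minimum level, fold and interval only chose which genes were counted and could not move a ratio. Their ratios are part of the 458, so that number overstates how stable the ratios were. *Mmp9* was at -0.39 without called doublets and -0.54 for members with at least 10 selecting UMIs, where *Fabp5* was at -0.0598. *Col10a1* was at 2.14 against comparison cells with little *Col10a1* and 2.17 against the narrow comparison. *Gas1* was at 0.74 against comparison cells under the *Prg4* and *Cilp*, endothelial and haematopoietic limits and 0.65 against the narrow comparison, and *Cytl1* was at 0.0596 against the former. The share of members in the metaphyseal libraries together was 0.119%, 0.137% with 1500 genes per cell, and between 0.0865% and 0.146% with 1 of them left out. Intervals cover counting error, and no replicate of the *Pdgfra-GFP* library was given here, so differences between animals were not measured.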

Other observations

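The 24 members below the cartilage limits of the comparison, not described as a group above, had a median of 6358.5 UMIs and *Col2a1* at 7322 CPM, against 44959 CPM in the other 337. *Sfrp5* was at 1693 CPM and *Efemp1* at 587 CPM in them, against 865 and 301 CPM, while *Sox9* was at 352 and 412 CPM. Genes with the largest ratios over the other members came from few cells: *Fabp4* was at 6665 against 22.4 CPM with 41.3% of UMIs in 1 cell, *Hp* at 3589 against 142 CPM with 60.1%, *Fabp5* at 2900 against 115 CPM with 82.1%, and *Mfap5* and *Tppp3* with 100% and 98.9%. *Bmp3* was at 182 against 36.3 CPM and *Cxcl14* at 1693 against 754 CPM. Of these cells' neighbours 64.4% were members and 6.67% superficial chondrocytes.

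A pair of unnamed genes, left out by the rule for names and picked here after their values were seen, was also higher in members. *Gm525* was at 37.5 against 3.05 CPM (12.3-fold, 8.41 to 18.5) and was found in 21.3% against 1.88% of cells, and *Gm19935* was at 82.8 against 12.2 CPM (6.80-fold). *Slc40a1*, the iron exporter ferroportin, also picked after its values were seen, was at 98.6 against 26.8 CPM (3.68-fold) and in 37.4% against 15.4% of cells. *Shox2*, a limb patterning transcription factor, was at 210 against 92.9 CPM (2.26-fold). The metabolic gene *Nnmt* was 2.63-fold higher in the sum, but 1.04-fold among the 337.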
